A study of Mus musculus with 6 samples.

Results

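The messenger RNAs of 10 postsynaptic scaffold genes were followed in mouse cortical neurons during depolarization. The genes were Arc, Homer1, Homer2, Homer3, Shank1, Shank2, Shank3, Dlg4 (PSD-95), Dlgap1 and Dlgap3 (SAPAP1 and SAPAP3). They were picked by name from the 43432 genes listed in each expression table, and all 10 were matched and tested among 22515 genes with a count. The neurons came from wild-type C57BL/6 embryos at E16.5, with both sexes pooled. All cultures, the 0 h controls included, were grown for 7 days and silenced overnight with 1 μM tetrodotoxin, which blocks sodium channels, and 100 μM DL-AP5, which blocks NMDA receptors. Depolarization with 55 mM KCl then lasted 0 h, 2 h or 6 h, with 2 biological replicates per time and 6 poly(A) RNA-seq libraries in all. Raised extracellular KCl depolarizes every cell in the dish, so the stimulus is not synaptic input. The labels do not say which embryos or which day each replicate came from, so its number was not taken to pair libraries.

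The postsynaptic density is a protein mesh under excitatory synapses that ties receptors to signalling enzymes and to actin. Dlg4 encodes PSD-95, a membrane-near scaffold of glutamate receptors, whose guanylate kinase-like domain binds SAPAP proteins (Dlgap1, Dlgap3). SAPAPs bind the PDZ domain of Shank proteins, and Shanks bind Homer proteins in the deeper layer. Homer proteins hold metabotropic glutamate receptors and calcium channels of internal stores through an EVH1 domain, and the long forms join into tetramers through a coiled coil. Arc and the short form Homer1a are textbook activity-induced genes. Homer1a keeps the EVH1 domain without the coiled coil and so can uncouple the links made by long Homers. Arc protein takes part in the removal of AMPA receptors from synapses.

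The gene tables do not separate the short from the long Homer1 messages, so the sequences at the branch are shown to make clear which transcripts the Homer1 count pools. Homer1 (ENSMUSG00000007617) lies on chromosome 13 from 93299635 to 93405129 of GRCm38, on the plus strand, and 11 transcripts were listed for it. Each line below gives the coding strand from 5′ to 3′, with the last 21 bases of a shared coding exon (chr13:93356059-93356079) in lower case and the 34 bases that follow in each transcript in capitals.
Homer1a (186 residues): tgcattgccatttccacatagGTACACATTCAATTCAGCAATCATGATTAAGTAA
Ania-3 (203 residues): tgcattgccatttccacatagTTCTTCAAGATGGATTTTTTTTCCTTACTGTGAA
Homer1b (a long form, 354 residues): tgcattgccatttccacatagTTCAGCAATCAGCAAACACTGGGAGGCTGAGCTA
In Homer1a the exon reads on into what is an intron of the long forms (chr13:93356080-93356113), and the reading frame ends at the last bases printed. Ania-3, another short form, continues at chr13:93366243-93366276 and Homer1b at chr13:93387524-93387557. These transcripts are 5713, 1533 and 2765 bases long in the GENCODE M21 annotation, and the Homer1a message is the longest of the 11 with a GC content of 36.9%.

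Promoters were searched because Homer1 moved apart from the other Homer genes, so its values prompted the search. Whether the sites bear on expression was not tested. The RefSeq promoter table (GRCm38.p6) held 12 start sites for 7 of the 10 genes, with no entry for Arc, Shank1 and Shank2. The 250 bases before each start were searched on both strands for the cyclic AMP response element TGACGTCA, its core TGACG and the AP-1 site TGAGTCA, where a full element holds the core on both strands. The 60 bases before the Homer1 start at position 93303757 of chromosome 13 (chr13:93303697-93303756, plus strand) are printed with the core in capitals.
Homer1 promoter: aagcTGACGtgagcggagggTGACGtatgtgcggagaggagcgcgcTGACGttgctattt
The cores began 56, 40 and 14 bases before the start. In GENCODE M21 this is the start of a 193-residue form of Homer1, and Homer1a and Homer1b start downstream, at 93304495 and 93305159. Among 32851 starts in the table, 226 (0.688%) held at least 3 cores and 17.8% held at least 1. The other Homer1 start, at position 93308034, had none. Of the remaining members, a single Dlg4 start had 1 core, which began 76 bases before it. Neither TGACGTCA, found before 1.55% of all starts, nor TGAGTCA, found before 4.46%, was present before any of the 12 starts.

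Total expected counts lay between 25959298 and 28573067 per library, and 18767 to 19212 genes had a count. The 10 neuronal markers were all above 1 TPM (abundance of transcripts scaled by length and library), with a summed level of 3800 to 3850 TPM at 0 h, 3200 to 3340 at 2 h and 3560 to 3720 at 6 h. The neuronal markers did not move as one, and neither did those of excitatory neurons. Between 0 h and 6 h the means of Tubb3 (1660 and 730 TPM), Rbfox3 (47.7 and 30.6), Syn1 (144 and 136) and Slc17a7 (49.1 and 31.8) were lower at 6 h. Those of Map2 (1020 and 1220), Snap25 (421 and 636), Slc17a6 (19.4 and 20.3), Neurod6 (264 and 384), Gad1 (158 and 370) and Gad2 (35 and 78.9) were higher. Slc17a7, Slc17a6 and Neurod6 mark excitatory neurons, and Gad1 and Gad2 mark inhibitory neurons. The 7 astrocyte markers, among them Gfap and Slc1a3, were also all above 1 TPM and summed to 591 to 632, 567 to 568 and 457 to 474 TPM. Sums were 98.2 to 144 TPM over 8 oligodendrocyte lineage markers, 3.45 to 9.39 over 6 microglial markers, 2.35 to 3.29 over 6 vascular and fibroblast markers, and 79.7 to 101 over 6 markers of dividing progenitors. Markers of astrocytes, the oligodendrocyte lineage and progenitors were thus detected beside those of neurons. In bulk samples fewer cells of a type and less RNA per cell cannot be told apart, and the part of the cell mix in the changes below was not tested.

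Arc and Homer1 stood far above their 0 h levels at 2 h and at 6 h, while the other 8 genes changed by less than 2-fold in every comparison with the size factors of DESeq2. A gene was called when its DESeq2 adjusted p was at most 0.05 and its fold change was above 2, the criteria of the study. At 2 h against 0 h, 2 of the 10 genes were called higher, where 3.62% of all genes tested were, and 0 were called lower, where 5.94% were. At 6 h against 0 h, 2 were called higher (9.1% of all genes) and 0 lower (10.2%). Between 2 h and 6 h, 0 were called higher (10.1%) and 0 lower (8.02%). The edgeR quasi-likelihood test gave the same counts in all 3 comparisons.

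On the adjusted p alone, 7 of the 10 genes were higher at 2 h than at 0 h, against 12.3% of all genes, and 0 were lower, against 14.2%. With library totals as scaling, Shank1, Dlg4 and Dlgap1 no longer passed and 4 genes were higher at 2 h, and with limma on log2(TPM + 1) only Arc, Homer1 and Shank2 passed. At 6 h against 0 h, 3 genes were higher (23.7% of all genes) and 2 lower (21.7%). GC correction made this 6 and 2, with Homer3, Shank2 and Dlg4 added, and leaving out any one 0 h or 6 h library made it 2 and 1. From 2 h to 6 h, 0 were higher (24.1%) and 4 lower (21.2%). Without 2 h replicate 1, 1 was higher and 7 were lower in this comparison. At an unadjusted p under 0.05, the 10 genes held 7 higher (16.9% of all genes) and 0 lower (17.8%) at 2 h. They held 4 higher (26.5%) and 2 lower (24.4%) at 6 h against 0 h, and 0 higher (26.8%) and 4 lower (24%) at 6 h against 2 h. Their median log2 fold change was 0.48 at 2 h, 0.16 at 6 h and -0.27 from 2 h to 6 h, beside medians of 0.02, 0 and -0.01 over all genes tested. In the text below, a gene rose or fell when its adjusted p passed, and called is kept for changes that were also above 2-fold.

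**Figure D1:**
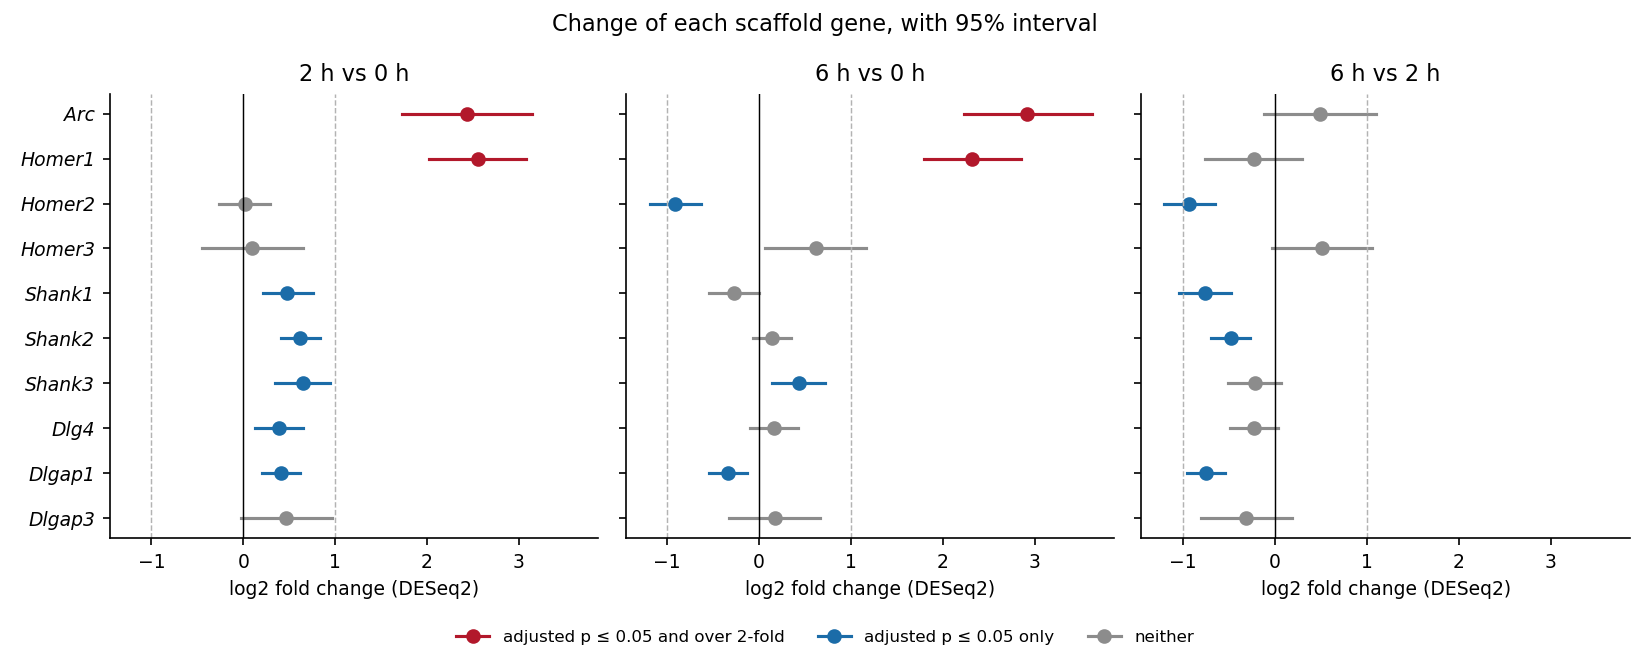
log2 fold change (x axis) of each of the 10 genes (y axis) in 3 comparisons, with 95% intervals from DESeq2 as lines and dashed lines at a 2-fold change. Only Arc and Homer1 were called, at 2 h and at 6 h against 0 h; the blue points passed the adjusted p without reaching a 2-fold change.

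Arc (ENSMUSG00000022602, chromosome 15, 74669083 to 74672570, minus strand) rose from a very low level. The controls held 18 and 37 expected counts of Arc, the 2 h libraries 121 and 131, and the 6 h libraries 165 and 170. The exact 95% Poisson intervals, which cover counting error only, were 10.7 to 28.4 and 26.1 to 51 at 0 h, 100.4 to 144.6 and 109.5 to 155.4 at 2 h, and 140.8 to 192.2 and 145.4 to 197.6 at 6 h. The counts of the 3 times did not overlap, whereas the intervals of 2 h and 6 h did. The 0 h replicates were 1.95-fold apart in normalized counts.

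After scaling for library size, Arc was at 23.6 ± 10.7 normalized counts at 0 h, 128 ± 10.3 at 2 h and 180 ± 4.45 at 6 h (mean ± SD, n = 2 each). The log2 fold change of Arc was 2.44 at 2 h (SE 0.36, DESeq2 adjusted p 3.12e-10) and 2.92 at 6 h (SE 0.36, adjusted p 3.9e-15), or 5.41-fold and 7.59-fold. Between 2 h and 6 h the difference was 0.49 (95% interval -0.12 to 1.1, adjusted p 0.2). It passed in 1 of 19 alternatives, GC correction, at 0.65 (adjusted p 0.0481), and not with GC correction and the replicate block (adjusted p 0.101). The size of the rise leaned on the baseline. Without 0 h replicate 1 it was 2.05 at 2 h and 2.53 at 6 h, and without 0 h replicate 2 it was 3.01 and 3.49. On the log2(TPM + 1) scale of limma, which shrinks changes of low genes, it was 1.29 and 1.67, and Arc was called under each of 19 alternatives at both times.

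Even after its rise Arc remained a low transcript in these cultures. Its TPM was 0.41 and 0.81 at 0 h, then 2.73 and 3.11 at 2 h, then 3.98 and 4.19 at 6 h. Among genes with a TPM above 0 in the same library, this placed Arc at percentiles 20.7 and 26.8, then 41.1 and 41.4, and then 44.4 and 44.9, below the median gene in all 6 libraries.

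Homer1 rose several-fold from a level that was already moderate. The controls had 2147 and 1924 normalized counts of Homer1, the 2 h libraries 15720 and 8178, and the 6 h libraries 10780 and 9524. Every depolarized library was above both controls, and the 2 h pair enclosed the 6 h pair. The log2 fold change of Homer1 was 2.55 at 2 h (5.87-fold, SE 0.27, DESeq2 adjusted p 2.3e-19) and 2.32 at 6 h (4.99-fold, SE 0.27, adjusted p 1.72e-16). Homer1 was called in both comparisons under each of 19 alternatives, with a range of 2.00 to 2.93 at 2 h and 1.99 to 2.41 at 6 h. In TPM it went from 51.0 and 46.2 to 293 and 219 and then to 216 and 177. It moved from percentiles 82.1 and 80.4 of the detected genes to between 95.1 and 97.4 in the KCl libraries.

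The Homer1 replicates at 2 h were 1.92-fold apart, a log2 ratio of replicate 1 to replicate 2 of 0.94, compared with 0.16 at 0 h and 0.18 at 6 h. Among the 12286 genes that averaged 50 or more normalized counts, 4.03% were as far apart as this at 2 h. Homer1 was the most AT-rich of the 10 genes. Among 173 genes whose GC content was within 1 percentage point of its own, the median log2 ratio at 2 h was also 0.94, with 5% to 95% of them between 0.1 and 1.76. The same genes had medians of 0.21 at 0 h and 0.05 at 6 h.

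The remaining members had GC contents of 44.4% (Homer2) to 63.9% (Dlgap3). Their 2 h ratios ran from 0.18 in Homer2, where genes of like GC content had a median of 0.2, to -0.62 in Dlgap3, where that median was -0.34. The low-GC members were thus higher in replicate 1 and the high-GC members higher in replicate 2, with Dlgap1 (50.9%, ratio 0.09, like-GC median -0.1) as an exception in the middle. Arc at 0 h was the member farthest from genes of like GC content, with a ratio of -0.96 beside a median of -0.06, on counts of 18 and 37.

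**Figure D2:**
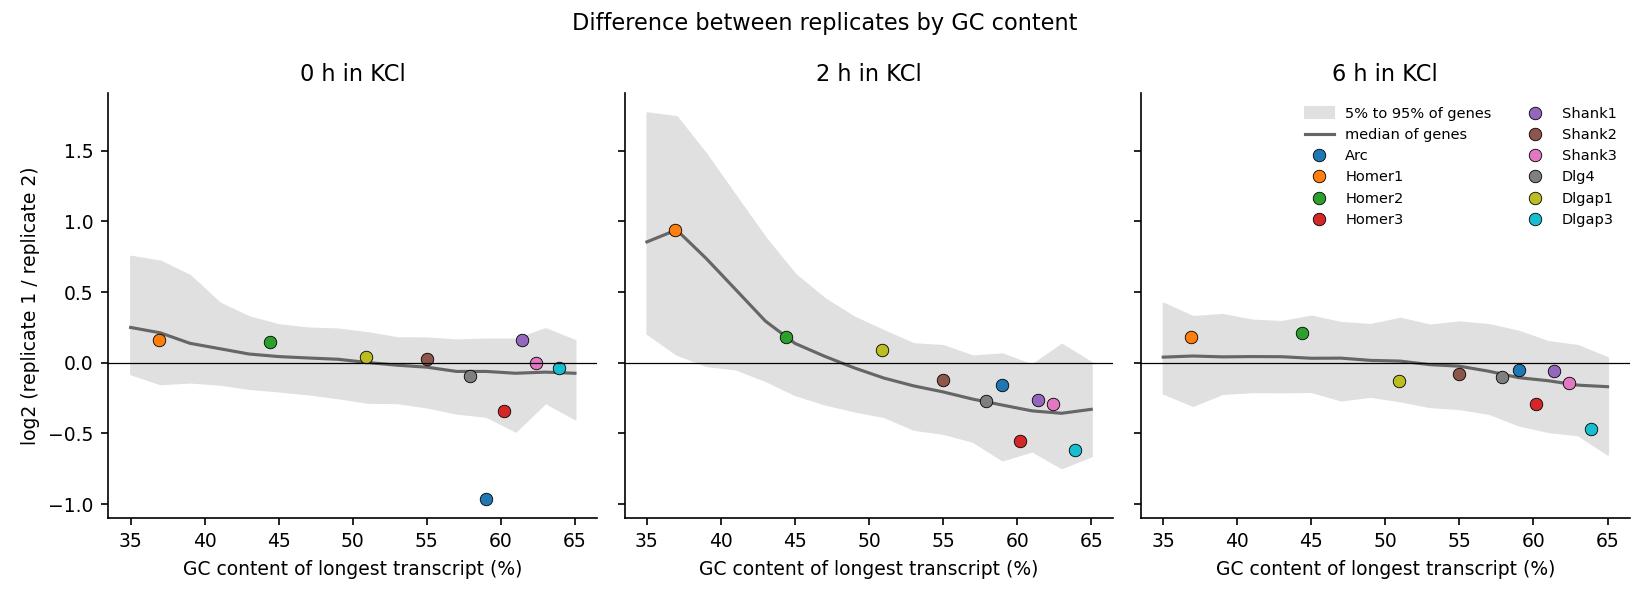
log2 ratio of replicate 1 to replicate 2 in normalized counts (y axis) against GC content of the longest transcript in percent (x axis) at each time. The line and band give the median and the 5% to 95% range of genes in bins of GC content, and at 2 h the Homer1 point (0.94) lies on the median of its bin.

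A correction that removed the trend with GC content in each library brought the 2 h values of Homer1 to 14510 and 14070, with 2004 and 2114 at 0 h and 8813 and 8053 at 6 h. The log2 ratio of the 2 h replicates was then 0.04. The correction sets genes on the median of their GC class to be equal between libraries, so the closeness follows from where Homer1 lay in that class. With it the values of the 3 times did not overlap. The change from 2 h to 6 h was -0.23 without correction (SE 0.27, 95% interval -0.76 to 0.29, DESeq2 adjusted p 0.505) and -0.76 with it (adjusted p 6.46e-22), which is under 2-fold. Leaving out 2 h replicate 1 turned it to 0.32 (adjusted p 0.00188), and leaving out 2 h replicate 2 gave -0.62 (adjusted p 2.56e-10). Whether Homer1 fell between 2 h and 6 h therefore rested on which 2 h library was used and on the GC correction. The paper groups Homer1 with genes whose RNA methylation and expression changed in the same direction between 2 h and 6 h. Its definition of that group requires differential expression, and Homer1 was not called in that comparison here.

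The wide 2 h pair also differed in effective length, a mean over the gene's transcripts weighted by abundance that is shorter than their full length. It was 2971 and 2956 bases at 0 h, then 3312 and 2353 at 2 h, then 3074 and 3373 at 6 h. Divided by length, the 2 h levels of Homer1 were closer together, since the log2 ratio of expected counts (0.99) was split into 0.49 for effective length and 0.42 for TPM, with the rest in scaling. The replicate with fewer reads thus had the shorter effective length.

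**Figure D3:**
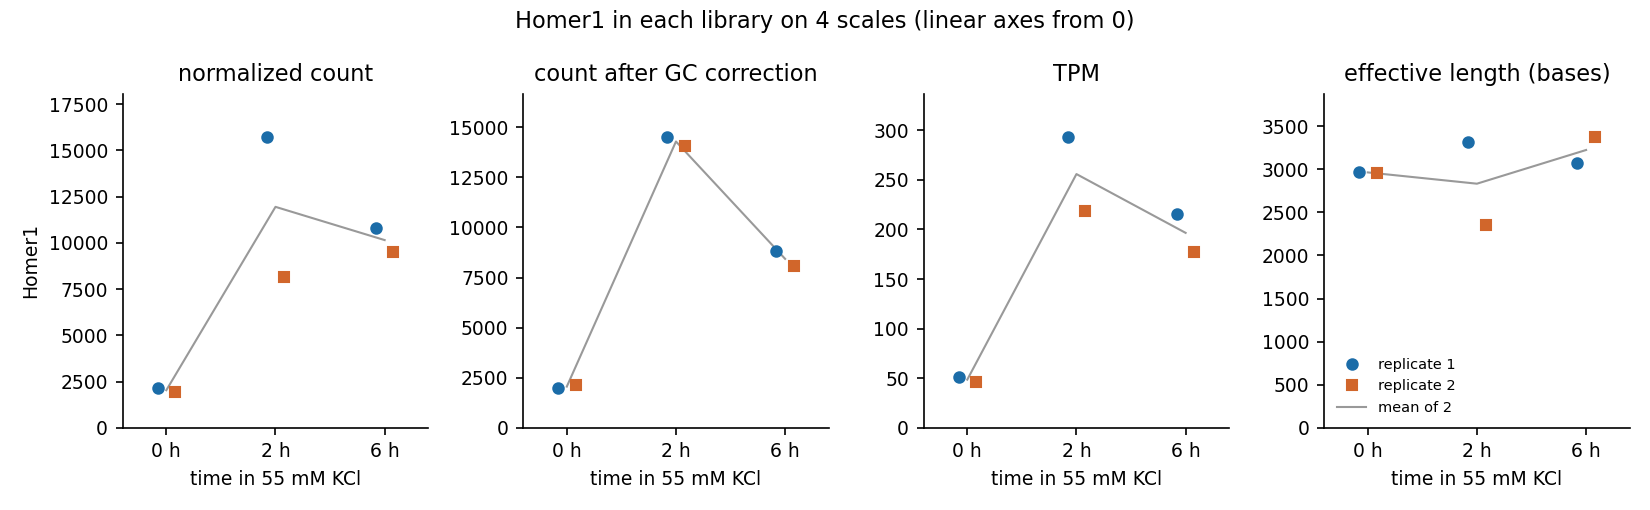
Homer1 in each library as normalized count, count after GC correction, TPM and effective length in bases (y axes from 0) against time in 55 mM KCl (x axis), with points for replicates and a line through the mean of 2. The 2 h replicates are apart on 3 of the scales (15720 and 8178 normalized counts) and together after GC correction (14510 and 14070).

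Homer2 and Homer3 encode other long Homer proteins, and neither rose at 2 h. Homer2 (ENSMUSG00000025813, chromosome 7, 81600481 to 81707527) was at 2452 and 2216 normalized counts at 0 h, then 2507 and 2212 at 2 h, then 1330 and 1152 at 6 h. It was at its control level at 2 h (log2 fold change 0.02, 95% interval -0.26 to 0.29, DESeq2 adjusted p 0.96) and fell by 6 h, when both libraries were below all others. The fall was -0.91 against 0 h (SE 0.14, adjusted p 1.95e-09) and -0.93 against 2 h (SE 0.14, adjusted p 1.21e-09), or 1.88-fold and 1.9-fold. This is just under the 2-fold criterion. Without 6 h replicate 1, Homer2 was called at 6 h against 0 h (-1.02) and against 2 h (-1.04), and without 2 h replicate 2 it was called against 2 h (-1.0). With library totals as scaling it was called lower in both comparisons, at -1.16 against 0 h (adjusted p 1.47e-16) and -1.01 against 2 h (adjusted p 1.34e-12). Limma on log2(TPM + 0.1) gave -1.09 against 0 h, also called.

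Homer3 (ENSMUSG00000003573, chromosome 8, 70282827 to 70294361) was the Homer gene with the fewest counts, with 155 and 196 normalized counts at 0 h, then 153 and 223 at 2 h, then 242 and 295 at 6 h. The log2 fold change at 6 h against 0 h was 0.62 (95% interval 0.07 to 1.16, DESeq2 adjusted p 0.0565) and did not pass, and that at 2 h was 0.1 (adjusted p 0.857). The 6 h difference passed in 10 of 19 alternatives, which ranged from 0.37 to 0.8, among them GC correction (0.75, adjusted p 0.00112) and limma on log2(TPM + 1) (0.41, adjusted p 0.0237). Against 2 h it was 0.51 (adjusted p 0.122), and this passed in 6 of 19. Its counts were not whole numbers in any of the 6 libraries, and it overlaps Ddx49 on the opposite strand. Its values are therefore uncertain.

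Per length, Homer1 made up most of the Homer family at all times and nearly all of it after KCl. Its share of the summed TPM of the 3 genes was 64.9% and 62.4% at 0 h, then 92% and 90% at 2 h, then 89.9% and 88.4% at 6 h. Homer2 went from 20.6% and 19.9% to 3.19% and 3.37% at 6 h. The summed TPM of the family was 78.5 and 74.1 at 0 h, then 318 and 243 at 2 h, then 240 and 200 at 6 h. The 2 h replicates thus had like shares of Homer1 (92% and 90%) with unlike sums (318 and 243).

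The Shank genes rose together at 2 h by less than 2-fold. Shank1 (ENSMUSG00000038738, chromosome 7, 44310253 to 44360572) was at 2449 and 2190 normalized counts at 0 h, then 2949 and 3537 at 2 h, then 1877 and 1958 at 6 h. Shank2 (ENSMUSG00000037541, chromosome 7, 144001928 to 144424494) was at 2906 and 2846, then 4240 and 4606, then 3090 and 3259. Shank3 (ENSMUSG00000022623, chromosome 15, 89499623 to 89560261), the gene lost in Phelan-McDermid syndrome, was at 1077 and 1074, then 1517 and 1851, then 1379 and 1517. For each Shank gene both 2 h libraries were above both 0 h libraries.

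The log2 fold change at 2 h was 0.48 for Shank1 (SE 0.14, DESeq2 adjusted p 0.00387), 0.62 for Shank2 (SE 0.11, adjusted p 1.05e-07) and 0.65 for Shank3 (SE 0.15, adjusted p 0.000134). From 2 h to 6 h Shank1 fell by 0.76 on the log2 scale (adjusted p 7e-07) and Shank2 fell by 0.48 (adjusted p 3.7e-05), while Shank3 stood at -0.22 (95% interval -0.51 to 0.07, adjusted p 0.236). The Shank3 value was -0.35 without 2 h replicate 1 (adjusted p 0.0141) and -0.05 without 2 h replicate 2 (adjusted p 0.782). At 6 h Shank3 was above 0 h by 0.43 in counts (adjusted p 0.0111), a difference that did not pass per length. Shank1 (-0.27, adjusted p 0.105) and Shank2 (0.14, adjusted p 0.287) did not pass against 0 h, although Shank2 passed with GC correction (0.26, adjusted p 0.00302, and 0.0122 with the replicate block added). Whether the courses of the 3 genes differ from each other was not tested.

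The sign of the rise at 2 h held for each Shank gene under all 19 alternatives, with ranges of 0.25 to 0.6 for Shank1, 0.4 to 0.67 for Shank2 and 0.26 to 0.77 for Shank3. The adjusted p passed in 13, 18 and 16 of the 19, and the test against a 2-fold change was among those missed by all 3. Leaving out 0 h replicate 1 gave Shank1 0.57 with an adjusted p of 0.0514, and leaving out 0 h replicate 2 gave 0.41 with 0.217. The 6 h difference of Shank3 did not pass without any single one of the 0 h or 6 h libraries, with values of 0.36 to 0.49. It also did not pass with library totals (0.18, adjusted p 0.372), with a length offset (0.21, adjusted p 0.222) or with limma on log2(TPM + 1) (0.05, adjusted p 0.721). The 6 h difference of Shank1 passed in 7 of 19 alternatives, with library totals at -0.52 (adjusted p 0.00172).

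By TPM the 3 Shanks were present at like levels. Shank1 took 38.9% and 36.9% of their sum at 0 h, then 36.1% and 37.3% at 2 h, then 33.6% and 28.1% at 6 h. Shank3 took 34.3% and 36.3%, then 34.3% and 34.5%, then 38.6% and 41.8%. The Shank1 share was lower and the Shank3 share higher in both 6 h libraries than in the 4 others.

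**Figure D4:**
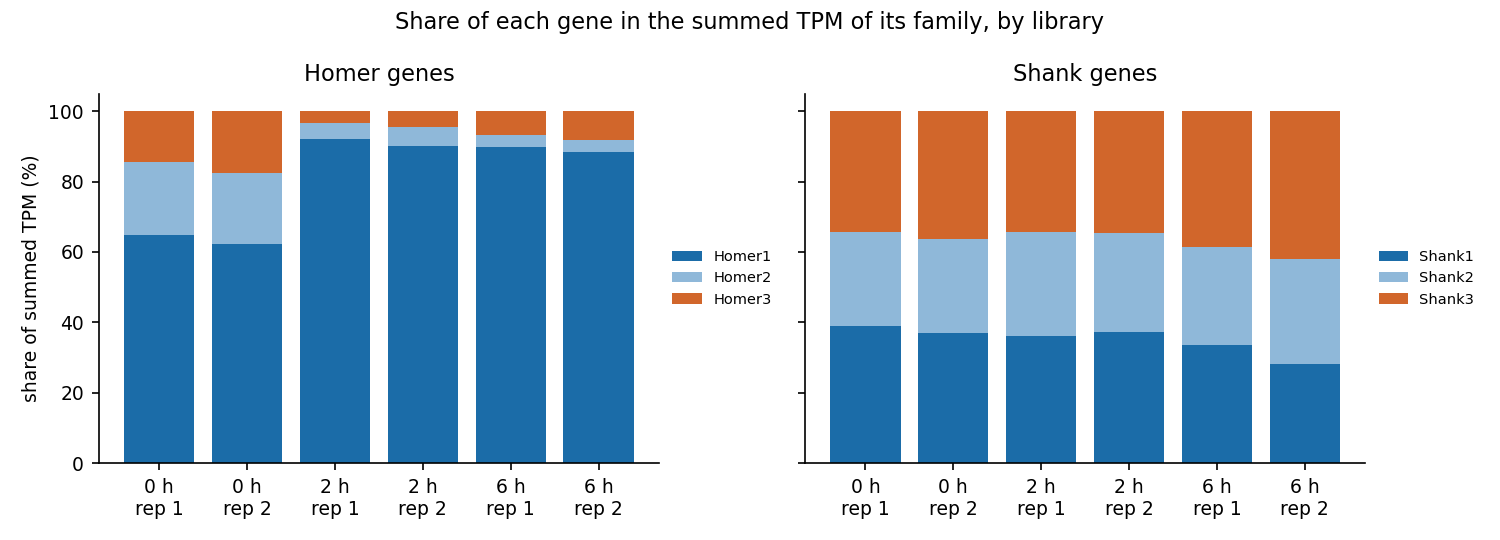
Share of each gene in the summed TPM of its family in percent (y axis) in each library (x axis), for the Homer genes and the Shank genes. Homer1 goes from 62.4% to 64.9% at 0 h to 88.4% or more in the KCl libraries, while each Shank gene keeps a share between 26.8% and 41.8%.

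Dlg4 and the SAPAP genes form the layer between receptors and Shanks. Dlg4 (ENSMUSG00000020886, chromosome 11, 70016942 to 70047522) was at 7416 and 7866 normalized counts at 0 h, then 9055 and 10930 at 2 h, then 8262 and 8825 at 6 h. It rose at 2 h by 0.39 (1.31-fold, SE 0.13, DESeq2 adjusted p 0.017), the smallest of the changes that passed at that time. The adjusted p passed in 9 of 19 alternatives and not without either 0 h or either 6 h library (0.35 to 0.44, adjusted p 0.0834 to 0.309). At 6 h Dlg4 stood at 0.16 against 0 h (95% interval -0.1 to 0.42, adjusted p 0.339), and with library totals as scaling it was at -0.09. This difference passed in 5 of 19 alternatives, among them GC correction (0.29, adjusted p 6.82e-06) and the fits without either 2 h library (0.16, adjusted p 0.0283 and 0.0325).

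Dlgap1 (ENSMUSG00000003279, chromosome 17, 69969073 to 70821413) was at 4046 and 3941 normalized counts at 0 h, then 5483 and 5152 at 2 h, then 3021 and 3298 at 6 h, with no overlap between the times. It rose by 0.41 at 2 h (SE 0.11, DESeq2 adjusted p 0.000889) and fell by 0.75 from 2 h to 6 h (SE 0.11, adjusted p 4.72e-11). After 6 h it was below the controls (log2 fold change -0.34, SE 0.11, adjusted p 0.0053). Without any single one of the 0 h libraries the 2 h rise was 0.44 or 0.4 and did not pass (adjusted p 0.11 and 0.158). With library totals the rise was 0.25 (adjusted p 0.0813). The 6 h difference from 0 h also did not pass without any one 0 h or 6 h library (-0.28 to -0.4), while with library totals it was -0.58 (adjusted p 7.82e-07). The fall from 2 h to 6 h passed in 18 of 19 alternatives, all but the test against a 2-fold change.

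Dlgap3 (ENSMUSG00000042388, chromosome 4, 127169204 to 127237022), a scaffold of striatal synapses in particular, was at 588 and 606 normalized counts at 0 h, then 652 and 1004 at 2 h, then 562 and 777 at 6 h. Its 2 h replicates were 1.54-fold apart. The log2 fold changes of 0.47 at 2 h (95% interval -0.02 to 0.97, DESeq2 adjusted p 0.168) and 0.17 at 6 h (adjusted p 0.636) did not pass. The 2 h value rested on which 2 h library was used. Without 2 h replicate 1 it was 0.74 and passed (adjusted p 0.000868), and without 2 h replicate 2 it was 0.11 (adjusted p 0.785). With GC correction it was 0.35 (adjusted p 0.0497), and with GC correction and the replicate block 0.34 (adjusted p 0.072).

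**Figure D5:**
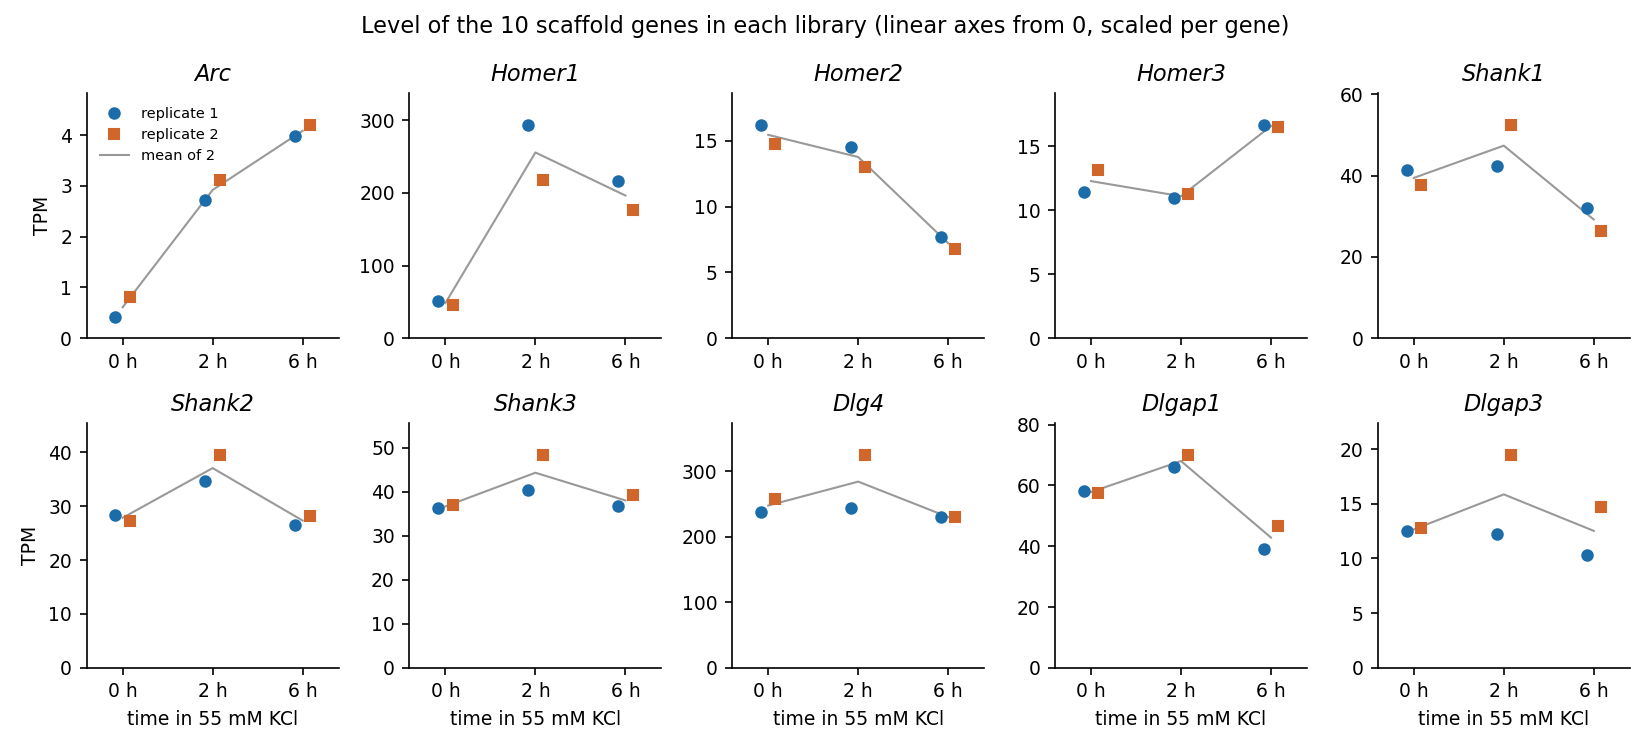
TPM of each of the 10 genes (y axes from 0, scaled per gene) in the libraries of each time in 55 mM KCl (x axis), with points for replicates and a line through the mean of 2. Arc goes from under 1 TPM to about 4 TPM, Homer1 from 46.2 and 51.0 TPM to 177 TPM or more, and Homer2 is lowest in both 6 h libraries.

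Levels were compared between genes in TPM, which is per length. At 0 h Dlg4 was highest with 238 and 258 TPM, followed by Dlgap1 (58.3 and 57.3), Homer1 (51.0 and 46.2), Shank1 (41.2 and 37.6), Shank3 (36.4 and 36.9) and Shank2 (28.4 and 27.3). Homer2 (16.2 and 14.7), Dlgap3 (12.5 and 12.8) and Homer3 (11.4 and 13.1) were lower, the last pair with overlapping values, and Arc was last. At 2 h Homer1 (293 and 219) overlapped Dlg4 (244 and 325), so neither was separated as the highest. At 6 h Dlg4 (230 and 231) was above Homer1 (216 and 177) in both libraries, and Homer3 (16.62 and 16.52) was above Homer2 (7.67 and 6.76), the reverse of their order at 0 h. The Homer3 values are uncertain, as given above, and its effective length at 6 h was 895 and 1120 bases.

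Effective lengths were tested for a change in transcript mix with limma over 11233 genes. None of the 10 genes reached both an adjusted p of 0.05 and a log2 ratio of 0.2. Over all genes, 0.0356% were called at 2 h, 0.525% at 6 h and 0.116% between 2 h and 6 h. At an unadjusted p under 0.05 the members held 1, 1 and 0 genes, beside 8.08%, 14% and 12.2% of all genes, and the gene was Shank3 in both cases. The effective length of Shank3 was 2086 and 2066 bases at 0 h, then 2326 and 2408 at 2 h, then 2309 and 2424 at 6 h. Every KCl library was longer than both controls, by a log2 ratio of 0.19 at 2 h (SE 0.03, limma p 0.00517, adjusted p 0.271) and 0.19 at 6 h (p 0.00523, adjusted p 0.132).

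Homer1, whose short and long forms differ in length, gave -0.09 at 2 h (SE 0.19, limma adjusted p 0.812) and 0.12 at 6 h (SE 0.19, adjusted p 0.68). With 2 h values of 3312 and 2353 bases on either side of the controls, a change in the Homer1 mix was not detectable here. Homer2 kept 10674 to 10692 bases in all libraries, close to the 10982 bases of its longer annotated transcript and far from the 1736 bases of the other. Arc, whose 2 transcripts have almost the same length, kept 2732 to 2752 bases.

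Partners of these scaffolds were followed in lists chosen with earlier results of these data known. None of 58 partner genes was called at 2 h by DESeq2 or by edgeR, where 3.62% of all genes were called higher and 5.94% lower. On the DESeq2 adjusted p alone 15 were higher (12.3% of all genes) and 2 lower (14.2%), and at an unadjusted p under 0.05 there were 23 (16.9%) and 3 (17.8%). At 6 h against 0 h, 6 were called higher (9.1% of all genes) and 6 lower (10.2%), and at 6 h against 2 h again 6 (10.1%) and 6 (8.02%). These shares of the partner genes at 6 h were near those of all genes, and the small counts of the single lists below are given as a description.

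Of 13 Homer ligands, 3 were called lower at 6 h than in the controls (10.2% of all genes) and 4 lower at 6 h than at 2 h (8.02%). In either comparison 0 were called higher, where 9.1% and 10.1% of all genes were (2 and 1 higher at an unadjusted p under 0.05, beside 26.5% and 26.8% of all genes, and 0 and 0 by edgeR). The list median was -0.2 and -0.25, beside 0 and -0.01 over all genes. Cacna1d, a pore subunit of L-type calcium channels, was at 1469 ± 87 normalized counts at 0 h, 2184 ± 64.3 at 2 h and 421 ± 2.26 at 6 h (n = 2 each). Its log2 fold change was -1.8 against 0 h (DESeq2 adjusted p 2.07e-43) and -2.38 against 2 h (adjusted p 3.48e-75).

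Itpr1, the main neuronal IP3 receptor, had 3986 ± 205 normalized counts in the controls, 4974 ± 173 after 2 h and 1352 ± 56.5 after 6 h (n = 2 each), a log2 fold change of -1.56 against 0 h. Itpr2 was called lower against 2 h (-1.23), but not with limma on log2(TPM + 1) (-0.74) or in the test against a 2-fold change. Cacna1d and Itpr1 had risen at 2 h, by 0.57 (DESeq2 adjusted p 1.53e-05) and 0.32 (adjusted p 0.0146), before they fell.

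Of 11 Arc partners only Ube3a, a ubiquitin ligase linked to Angelman syndrome, was called, higher at 6 h than at 0 h (1.23, DESeq2 adjusted p 0.0446) and than at 2 h (1.57, adjusted p 0.00852), where 9.1% and 10.1% of all genes were called higher. Its 2 h value was 1725 ± 1060 normalized counts (n = 2), and the call against 0 h was kept in 8 of 19 alternatives and lost without any one 0 h or 6 h library (log2 fold changes under the 19 from 0.99 to 1.41). The call against 2 h was lost without either 6 h library, and its size was 2.4 without 2 h replicate 1 and 1.06 without 2 h replicate 2. Of 12 partners of Shank and SAPAP, only Dlgap2, another SAPAP gene, was called, higher in the same comparisons (9.1% and 10.1% of all genes). It was at 522 ± 4.5 normalized counts at 0 h, 496 ± 38 at 2 h and 1161 ± 44.4 at 6 h, a log2 fold change of 1.16 against 0 h and 1.23 against 2 h. With library totals as scaling its change against 0 h was 0.91 and not called.

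Among 22 MAGUK and other postsynaptic scaffold genes, 4 were called higher (9.1% of all genes) and 3 lower (10.2%) at 6 h against 0 h, and 4 higher (10.1%) and 2 lower (8.02%) at 6 h against 2 h. By edgeR the counts were 3 and 3, and 4 and 3. The call of Tanc1, a scaffold with ankyrin repeats that is named here after its values were seen, was at the threshold against 0 h (1.0). It was kept in 6 of 19 alternatives, edgeR not among them. Lin7a, a small PDZ protein, and Dlg1 (SAP97) had the largest values, at 2.19 and 1.52 against 0 h and 2.2 and 1.27 against 2 h. Lin7a was at 1368 ± 183 normalized counts at 0 h, 1359 ± 781 at 2 h and 6233 ± 38 at 6 h (n = 2 each), and its value against 2 h was 2.96 without 2 h replicate 1 and 1.72 without 2 h replicate 2. Dlg1 went from 1006 ± 62.1 to 1198 ± 91.3 and 2893 ± 17.5 normalized counts (n = 2 each), beside the small 6 h difference of its paralog Dlg4. The smallest values were those of Grip2 (-1.3) and Lin7b (-1.17) against 0 h, and of Pick1 (-1.26) and Lin7b (-1.15) against 2 h. Lin7b was low, at 60.6 ± 5.09 normalized counts at 6 h, and its calls were lost without 6 h replicate 2 in both comparisons, without 0 h replicate 1 in the first (-1.41 to -1.03 under the alternatives) and without 2 h replicate 2 in the second (-1.4 to -0.82). The call of Lin7b against 2 h was also lost with GC correction (-0.95, also with the replicate block) and with limma on log2(TPM + 1) (-0.98), and both of its calls were lost in the test against a 2-fold change.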

How the data were processed

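Poly(A) RNA-seq of 6 libraries was analysed. Per the labels and the methods, the authors trimmed reads, mapped them to mm10 and estimated expression with RSEM; the submitters' processing notes name RSEM 1.3.0 and Bowtie2 2.2.9. The annotation release and the strand setting of RSEM are not given in the sources used here. The expected counts deposited by the authors are not normalized, and share ambiguous reads among transcripts. The TPM values deposited by the authors are scaled per length and library, and their effective lengths, another deposited quantity, are abundance-weighted means over transcripts. FPKM was not used. Of 43432 gene identifiers, 42462 were matched to symbols through GENCODE M21 (GRCm38), whose lengths equalled those in the files (within 0.5 bases) for 82.6% of 27749 single-transcript genes.

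Expected counts were rounded and fitted with DESeq2 1.42.0 (R 4.3.3), all 6 libraries in one fit with time as the term, Wald tests without shrinkage of fold changes, and p-values adjusted after Benjamini and Hochberg across every gene that passed independent filtering; DESeq2 and the thresholds are those of the study's methods. Normalized counts are divided by median-of-ratios size factors. Effective lengths were tested with limma 3.58.1 (trend) where the expected count averaged 100 or more. GC content is that of a gene's longest listed transcript, and the GC correction was a loess offset per library. Alternatives were edgeR 4.0.16, other scalings, filters, GC, length and block terms, limma on log2(TPM + 1) or log2(TPM + 0.1) with a TPM minimum of 0.5, and each library left out. The scripts were tested on simulated data. Total counts of 25959298 to 28573067 per library set the precision, and counting intervals (95%) cover counting error only. The replicates are biological per the labels, with no culture or litter named, so p-values measure the spread between these libraries. The genes, lists and tests were chosen with earlier results of these data known. Named partners were the called genes of each list where at most 4 were called, otherwise the 2 largest and 2 smallest changes among called genes averaging 50 or more normalized counts. Not every gene that this rule names is reported here. The 5 genes of most similar course were named for Arc and Homer1.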

Additional observations from a re-analysis of the deposited data

How the results depend on the processing

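With 2 libraries per time, and 1 in the reduced group when a library is left out (then assumed to vary like the others), changes near the thresholds are not settled. At 2 h and at 6 h against 0 h, Arc and Homer1 were called under every alternative run. From 2 h to 6 h, 1 member (Homer2) instead of 0 was called with library totals as size factors (-1.01), with GC correction (-1.11) and with GC correction and the replicate block (-1.12), and leaving out a library gave 0 to 1. The median absolute log2 ratio of the 2 h replicates over the members went from 0.27 to 0.08 with GC correction. At 6 h against 0 h, Homer2 was also called with library totals (-1.16) and with limma on log2(TPM + 1) (-1.0) or log2(TPM + 0.1) (-1.09). Library totals moved the median log2 fold change of all genes by -0.17 at 2 h, -0.25 at 6 h and -0.08 between them. They called 499 genes higher and 1332 lower at 2 h, and 1032 and 2564 at 6 h against 0 h, where 1572 and 1761 were called with the size factors of DESeq2. On the adjusted p alone, 2 to 8 members were higher at 2 h under the alternatives.

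Reversed signs were all in changes that had not passed, and the cause was not tested. With library totals these were Homer2 (-0.15) and Homer3 (-0.06) at 2 h, and Shank2 (-0.1), Dlg4 (-0.09) and Dlgap3 (-0.08) at 6 h against 0 h. With limma on log2(TPM + 1) they were Homer2 (-0.16), Homer3 (-0.13), Shank2 (-0.03), Dlg4 (-0.1) and Dlgap3 (-0.03), and with log2(TPM + 0.1) -0.17, -0.14, -0.03, -0.1 and -0.04. With GC correction Shank3 was at 0.01 from 2 h to 6 h, also with the block. With each library left out in turn, ranges were -0.09 to 0.1 for Homer2 and -0.21 to 0.34 for Homer3 at 2 h, -0.09 to 0.38 for Dlgap3 at 6 h against 0 h, and -0.62 to 0.32 for Homer1 and -0.58 to 0.05 for Dlgap3 against 2 h. The single values beyond 0 were -0.05 and -0.09 for Homer2 and -0.05 and -0.21 for Homer3. Log2 effective length ratios reversed only when a library was left out. Their ranges at 2 h were -0.33 to 0.16 for Homer1, -0.22 to 0.31 for Homer3 (-0.03 being the other reversed value), -0.05 to 0.07 for Dlg4 and -0.08 to 0.07 for Dlgap1. At 6 h against 0 h they were -0.16 to 0.16 for Homer3 (0.07 the other), -0.2 to 0.16 for Shank1, -0.04 to 0 for Shank2 and -0.01 to 0.01 for Dlgap3. Against 2 h they were -0.04 to 0.45 for Homer1, 0 for Homer2, -0.32 to 0.22 for Homer3 (0.11 the other), -0.24 to 0.12 for Shank1 and -0.04 to 0.03 for Shank3 (0.02 the other).

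The replicate numbers did not pair the libraries by any label, and deviations of same-numbered libraries correlated at 0.281 (2 h and 0 h), -0.002 (6 h and 0 h) and 0.152 (6 h and 2 h). After GC correction these correlations were 0.103, -0.06 and 0.045. With the replicate block 2, 2 and 0 members were called in the 3 comparisons, as without it. Over all genes, 548 were called higher and 967 lower at 2 h with the block, and 609 and 1000 without. The test against a 2-fold change called 178 and 225.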

Other observations

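The genes whose course over the 6 libraries was most like that of Arc and of Homer1 were found by the root mean square difference of log2 normalized counts, each gene centred on its 0 h mean, among the 11182 genes that averaged 100 or more normalized counts. For Arc they were Baz1a, a chromatin remodelling subunit (0.27), Mirg, a maternally expressed non-coding RNA (0.33), Scg2, which encodes the granule protein secretogranin II (0.36), Ell2, a transcription elongation factor (0.42), and Cfap43 (0.44). Scg2 had mean normalized counts of 2283 in the controls, 9540 after 2 h and 17250 after 6 h, and Baz1a had 108, 619 and 913. For Homer1 they were Fosl2, an AP-1 subunit (0.31), Fbxo33 (0.33), the amino acid transporter gene Slc38a2 (0.34), Ell2 (0.35) and Arl5b (0.36). Fosl2 had 1928, 11980 and 7899 at the 3 times, and Slc38a2 had 2322, 9904 and 10760. Ell2 was in both groups. The measure takes in the difference between the 2 h replicates as well as the change over time.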
